A study of Mus musculus with 2 samples.

Results

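Chemokine receptors decide where a lymphocyte goes, and 9 receptor genes were followed here in regulatory T cells (Tregs) from fat: Ccr1, Ccr2, Ccr4, Ccr7, Ccr8, Cxcr3, Cxcr4, Cxcr5 and Cxcr6. The genes were chosen by symbol, and all 9 were found among the 10219 genes of the deposited count table. RNA sequencing had been carried out on adipose Tregs of C57BL/6 mice aged 4 months. The KO library came from Hif1afl/fl;Foxp3Cre mice and the Foxp3Cre library from Foxp3Cre mice, the controls, so both groups carry a Cre recombinase tied to Foxp3, the lineage transcription factor of Tregs, and floxed alleles of Hif1a are named for the KO alone. Hif1a encodes the alpha subunit of HIF-1, a transcription factor that oxygen destabilizes. The number of mice behind each library, the sort markers and the floxed exons are not given in the labels. Each genotype is 1 library. No difference below therefore has a replicate check, and every interval covers counting error only.

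Chemokine receptors are G protein-coupled receptors that sense gradients of small secreted proteins and, through inhibitory G proteins, drive cell polarity, integrin activation and migration. Some guide T cells into inflamed or barrier tissue, as Ccr4, Ccr8, Cxcr3 and Cxcr6 do, while Ccr1 and Ccr2 are best known for the recruitment of monocytes and effector T cells. Ccr7 brings naive and central memory T cells into the T cell zone of lymph nodes, and Cxcr5 brings B cells and follicular T cells into B cell follicles. Cxcr4 follows Cxcl12 in bone marrow, lymphoid organs and many tissues, and stands by itself here. In fat, Tregs carry a tissue-resident programme that includes high levels of several tissue-homing receptors.

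The listed genes held 11337415 counts in the KO library and 13472317 counts in the Foxp3Cre library. Hif1a had 780 CPM (counts per 1000000 counts of scaled library size) in the KO library and 1273 CPM in the Foxp3Cre library, which is 1.63-fold lower with a 95% counting interval of 1.59 to 1.68. This is a limited check of the genotype, since the exons outside the floxed part are counted too. The pan T cell markers differed by less than 2-fold in all 10 cases, with a median log2 ratio of 0.12. The 6 Treg markers had a median log2 ratio of -0.60, with 2 lower by 2-fold or more and 4 within 2-fold. They ranged from -2.84 for Il2ra, at 608 CPM in the KO and 4346 CPM in the Foxp3Cre library, to -0.14 for Ikzf2. Foxp3 itself stood at 46.4 CPM in the KO library and 104 CPM in the Foxp3Cre library. Macrophage markers were far higher in the KO library, by a median log2 ratio of 5.18 over the 6 of 17 that are in the table, and their summed level was 3657 CPM in the KO library and 245 CPM in the Foxp3Cre library. None of those 6 was at 0 in either library, 3 of them (Lyz2, Fcgr1 and Pf4) had Foxp3Cre levels too low to be listed without a higher KO count, the other 3 had a median of 4.29, and the other 11, among them Adgre1 and Csf1r, were not analysed here. In bulk RNA, fewer cells of a type and less RNA per cell cannot be told apart.

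Most tissue-homing receptors were lower in the KO library, with 1 exception, Cxcr3, and Ccr7, the well-counted lymphoid-homing receptor, was higher. Of the 6 tissue-homing receptors, 5 were 2-fold lower or more (Cxcr6, Ccr8, Ccr4, Ccr1 and Ccr2) and Cxcr3 was 2-fold higher or more. Ccr7 was 2-fold higher or more, and so was Cxcr5, the other lymphoid-homing receptor, whose listing in the table depended on its KO count. The lowest mean of the 2 counts of any listed gene is 50.5, and at its Foxp3Cre level in both libraries Cxcr5 would have fallen below it, so that Ccr7 alone in this group could have gone either way. Of all listed genes, 500 were near this floor through a low Foxp3Cre level and 282 through a low KO level. Cxcr4 stayed within 2-fold. A call of 2-fold is a log2 ratio of KO over Foxp3Cre of at least 1 in size on CPM + 0.5. Over all 10219 genes, 8.41% were lower by 2-fold or more, 10.9% higher by 2-fold or more and 19.3% past 2-fold in either direction, against 5, 3 and 8 of the 9 receptors. The median log2 ratio was -1.33 for the tissue-homing group and 1.95 for the lymphoid-homing group, beside 0.01 for all listed genes. The difference between the group medians was 3.28 on the log2 scale. Without Cxcr5 the lymphoid-homing value was that of Ccr7, 1.503, and the difference 2.83. Of all genes past 2-fold, 56.5% were higher in the KO library. Scaling on pan T cell markers shifts every ratio by -0.12 and makes this 46.4%, and scaling on Treg markers shifts every ratio by 0.60 and makes it 90.2%. The 9 receptors kept the direction of their ratios under both.

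**Figure D1:**
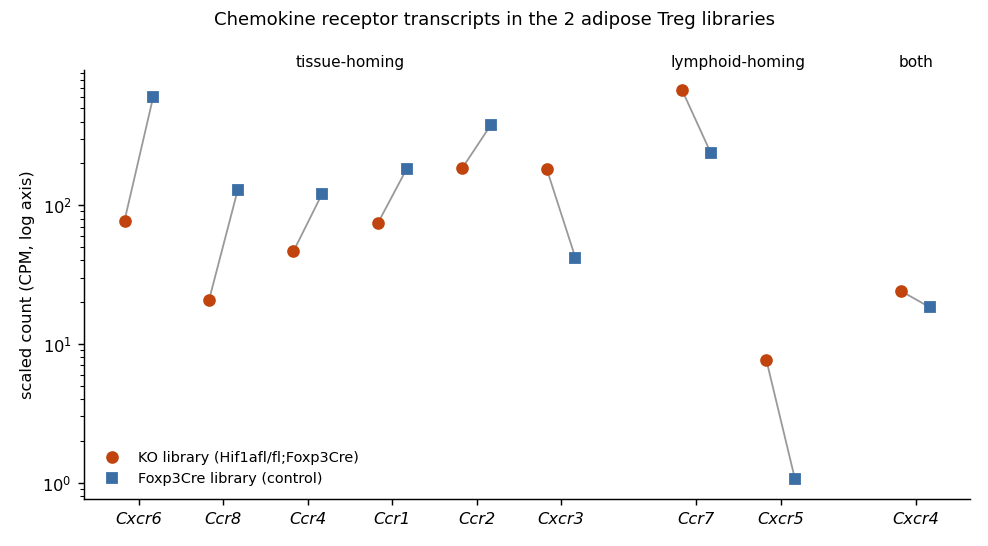
Scaled counts (CPM, log axis) of the 9 receptor genes in the KO library (circles) and the Foxp3Cre library (squares), with a line joining the 2 values of a gene. Cxcr6, Ccr8, Ccr4, Ccr1 and Ccr2 lie lower in the KO library, and Cxcr3, Ccr7 and Cxcr5 lie higher.

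Of the 7 receptor genes with a RefSeq promoter window, 4 are shown by sequence because they span the range of responses: Cxcr6 and Ccr8 had the lowest ratios, Cxcr3 was the tissue-homing receptor with a higher level, and Cxcr4 was the receptor within 2-fold. Each line gives bases upstream of the RefSeq start on the gene's own strand, 5′ to 3′, without any base that lies in a GENCODE M21 exon. They are from RefSeq on build GRCm38.p6: Cxcr6 at chr9:123806227-123806474 (plus strand), Ccr8 at chr9:120091883-120092113 (plus strand), Cxcr3 at chrX:101734270-101734397 (minus strand) and Cxcr4 at chr1:128592300-128592549 (minus strand). Capitals mark the core of the hypoxia response element, the motif that HIF-1 binds, searched as ACGTG and GCGTG on both strands; CACGC in capitals is GCGTG read on the opposite strand.
Cxcr6: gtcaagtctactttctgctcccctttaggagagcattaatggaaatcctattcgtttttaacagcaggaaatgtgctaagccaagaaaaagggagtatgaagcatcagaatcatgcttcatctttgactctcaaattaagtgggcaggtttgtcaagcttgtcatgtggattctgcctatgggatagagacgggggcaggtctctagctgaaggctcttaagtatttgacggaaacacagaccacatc
Ccr8: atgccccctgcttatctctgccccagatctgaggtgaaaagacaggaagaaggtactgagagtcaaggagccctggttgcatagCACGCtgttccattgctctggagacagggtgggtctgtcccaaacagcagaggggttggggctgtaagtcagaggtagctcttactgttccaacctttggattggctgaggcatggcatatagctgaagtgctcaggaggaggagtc
Cxcr3: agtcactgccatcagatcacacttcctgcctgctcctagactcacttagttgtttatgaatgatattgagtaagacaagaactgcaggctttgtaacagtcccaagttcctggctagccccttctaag
Cxcr4: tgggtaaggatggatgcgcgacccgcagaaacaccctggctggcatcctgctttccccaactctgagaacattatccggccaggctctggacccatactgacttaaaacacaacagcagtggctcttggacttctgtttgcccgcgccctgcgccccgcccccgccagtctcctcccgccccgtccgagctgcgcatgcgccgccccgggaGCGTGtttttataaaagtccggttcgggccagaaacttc
In the full windows, from 250 bases before to 50 bases after the start, Ccr8 held 1 core at position -166, Cxcr4 1 at position -39, Ccr1 1 at position -25 and Cxcr3 1 at position -103, the last within an annotated exon and so not printed above. Position -1 is the base just before the start, and each position is that of the leftmost base of the core. The windows of Cxcr6, Ccr2 and Ccr4 held 0. Among all 32851 windows of 300 bases, 43.8% held 1 or more such cores. Of the 7597 listed genes with a window, 69.1% held a core in 1 or more of their windows. The receptors' share was 4 of 7 windows, with 1 window per gene. It is comparable with the share per window, since the share per gene counts any window of a gene. A match is a description of letters and not of binding. The Cxcr4 window is the one rich in CG pairs, with 20, against 1 to 4 in the other windows.

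Cxcr6, the receptor for the membrane-bound chemokine Cxcl16, showed the lowest ratio of the 9. It had 889 counts, or 77.4 CPM, in the KO library and 8027 counts, or 604 CPM, in the Foxp3Cre library. It was 7.80-fold lower in the KO library (counting interval 7.28 to 8.37), with a log2 ratio of -2.96. Counted from the lowest ratio, it took place 41 among the 10219 genes. The gene overlaps the span of Fyco1 on the opposite strand but shares 0 exon bases with it, and Fyco1 had a log2 ratio of -0.15.

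Ccr8, a receptor that marks Tregs in skin, fat and tumours, came next. It had 237 counts, or 20.6 CPM, in the KO library and 1704 counts, or 128 CPM, in the Foxp3Cre library. The gene was 6.21-fold lower in the KO library (5.42 to 7.15). Ccr4, the receptor for Ccl17 and Ccl22 on skin-homing and effector T cells, had 46.4 CPM in the KO library and 121 CPM in the Foxp3Cre library. It was 2.60-fold lower (2.36 to 2.88), from 533 counts in the KO and 1605 in the Foxp3Cre library.

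Ccr1 and Ccr2, the receptors shared most widely with monocytes and macrophages, were lower as well. Ccr1, a receptor for Ccl3, Ccl5 and other inflammatory chemokines, had 74.2 CPM in the KO library and 182 CPM in the Foxp3Cre library and was 2.45-fold lower (2.27 to 2.66). Ccr2, the receptor for Ccl2 and Ccl7, had 185 CPM in the KO library and 380 CPM in the Foxp3Cre library and was 2.06-fold lower (1.95 to 2.16), so its interval reaches below 2-fold. Both were lower in the library in which macrophage markers were higher, at summed levels of 3657 CPM in the KO and 245 CPM in the Foxp3Cre library. Of 5 monocyte markers looked for, 2 are in the table, Ly6c2 and Plac8, with log2 ratios of 4.35 and 1.07. The part of such cells in the Ccr1 and Ccr2 values was not tested. With the 6 Treg markers centred on a log2 ratio of 0, Ccr1, Ccr2 and Ccr4 came within 2-fold, at log2 ratios of -0.69, -0.44 and -0.78, while Cxcr6 and Ccr8 stood at -2.36 and -2.01. That centre is the median of 6 markers whose own ratios ranged from -2.84 to -0.14.

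Cxcr3, the receptor for the interferon-induced chemokines Cxcl9, Cxcl10 and Cxcl11 and a mark of type 1 immunity, went the other way from the rest of its group. It had 2087 counts, or 182 CPM, in the KO library and 553 counts, or 41.6 CPM, in the Foxp3Cre library. It was 4.37-fold higher in the KO library (3.97 to 4.80), with a log2 ratio of 2.11. Tbx21, the transcription factor that drives Cxcr3 in type 1 T cells and Tregs, was not analysed here. Some dendritic cells also carry Cxcr3. Of the 10 dendritic cell markers in the table, 7 were higher by 2-fold or more in the same library and 1, Xcr1, lower. Their median log2 ratio was 1.27, and their summed level 2698 CPM in the KO and 881 CPM in the Foxp3Cre library. Most of that level came from H2-Ab1, H2-Aa, H2-Eb1 and Cd74, antigen presentation genes that are not limited to dendritic cells. Ccl22, Zbtb46 and Batf3 had log2 ratios of 1.15, 1.38 and 1.15. Flt3 and Fscn1, at 0.99 and 0.97, were just within 2-fold. The part of dendritic cells in the Cxcr3 value was not tested.

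**Figure D2:**
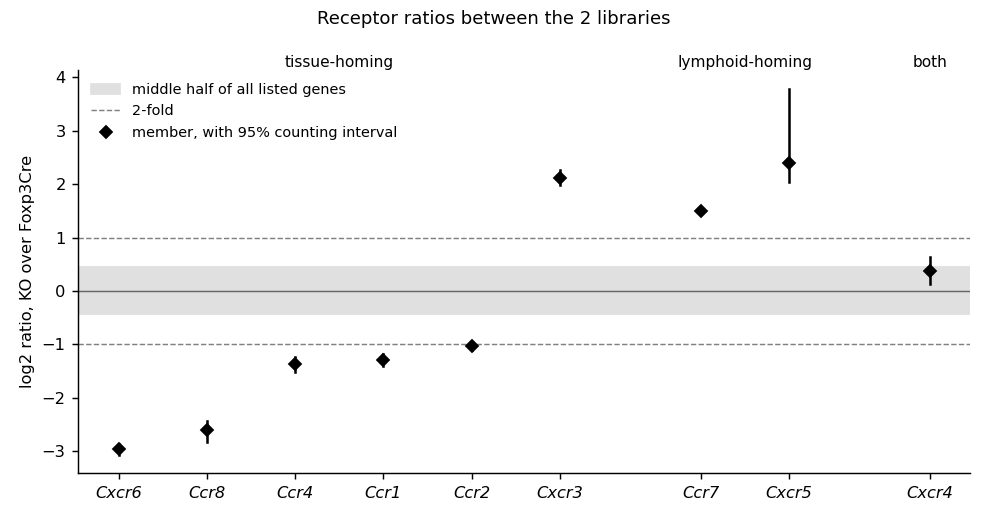
Log2 ratio of KO over Foxp3Cre on CPM + 0.5 for each receptor (diamonds), with 95% counting intervals of the ratio without the added 0.5, dashed lines at 2-fold and a grey band for the central range of all listed genes, from -0.43 to 0.46. Cxcr4 lies at the band and the other 8 receptors lie past a dashed line, on opposite sides for most tissue-homing and for the lymphoid-homing receptors.

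Ccr7, the lymph node receptor, was the most abundant of the 9 in the KO library. It had 7806 counts, or 679 CPM, in the KO library and 3182 counts, or 239 CPM, in the Foxp3Cre library. It was 2.84-fold higher (2.72 to 2.96), and its log2 ratio was 1.38 when the libraries were scaled on pan T cell markers. Mature dendritic cells and B cells also carry Ccr7. Most dendritic cell markers were higher in the same library, with the limit given above. The 3 B cell markers in the table were Ighm, Cd79b and Igkc, at log2 ratios of 1.18, -0.31 and -0.27 and a summed level of 293 CPM in the KO and 151 CPM in the Foxp3Cre library, and their part in the Ccr7 value was not tested.

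Cxcr5 rested on few counts. It had 88 counts, or 7.66 CPM, in the KO library and 14 counts, or 1.05 CPM, in the Foxp3Cre library, a 7.27-fold higher level with a wide counting interval of 4.11 to 13.8. The table holds no gene with a Foxp3Cre count below 14, and Cxcr5, with a mean count of 51.0, has just 13 genes with a lower mean. Given this floor, neither the direction nor the size of its ratio is a finding by itself. Of its 3332 exon bases, 110 are shared with Bcl9l on the opposite strand, and since the strand setting of the counting is not given in the sources used here, reads there could come from either gene.

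Cxcr4, which HIF-1 induces at low oxygen in several human cell types, had 275 counts, or 23.9 CPM, in the KO library and 243 counts, or 18.3 CPM, in the Foxp3Cre library. It was 1.31-fold higher in the KO library (1.10 to 1.56). Its log2 ratio of 0.38 lay within the central range of all genes, and scaling on pan T cell markers brought it to 0.26. Per length, it took place 8 of 9 in both libraries.

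Levels between genes were compared per length, as CPM per kilobase of merged GENCODE M21 exons. In the KO library Ccr7 led at 343 CPM per kb, followed by Cxcr3 at 105, Cxcr6 at 40.1, Ccr2 at 27.4, Ccr1 at 26.2, Ccr8 at 17.6, Ccr4 at 15.0, Cxcr4 at 13.2 and Cxcr5 at 2.30 CPM per kb. In this order the counting intervals of Ccr2 and Ccr1, of Ccr8 and Ccr4, and of Ccr4 and Cxcr4 overlapped. In the Foxp3Cre library Cxcr6 led at 313 CPM per kb, followed by Ccr7 at 121, Ccr8 at 109, Ccr1 at 64.2, Ccr2 at 56.3, Ccr4 at 39.0, Cxcr3 at 24.0, Cxcr4 at 10.1 and Cxcr5 at 0.32 CPM per kb, and no pair of neighbours had overlapping intervals. Ccr7 thus stood in place 1 in the KO and in place 2 in the Foxp3Cre library, Cxcr6 in place 3 in the KO and in place 1 in the Foxp3Cre library, and Cxcr3 in place 2 in the KO and in place 7 in the Foxp3Cre library.

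The make-up of the summed receptor level shifted with them. Tissue-homing receptors held 39.2% of the summed level per length of the 9 genes in the KO library and 82.2% in the Foxp3Cre library. Lymphoid-homing receptors held 58.6% in the KO library and 16.5% in the Foxp3Cre library, nearly all of it Ccr7, with 58.2% in the KO and 16.4% in the Foxp3Cre library. Cxcr6 by itself held 6.79% in the KO library and 42.4% in the Foxp3Cre library. Ratios within a library need no scaling between libraries. Ccr7 stood at 8.57 times the level of Cxcr6 per length in the KO library and at 0.387 times in the Foxp3Cre library, a 22.2-fold shift, and Ccr7 stood at 19.6 times the level of Ccr8 in the KO library and 1.11 times in the Foxp3Cre library.

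**Figure D3:**
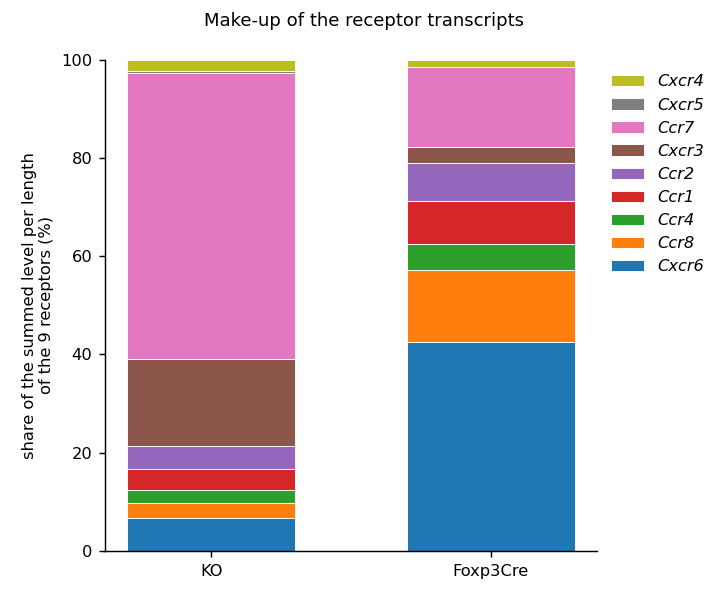
Share of each receptor (%) in the summed level per length of the 9 genes, in the KO library (left bar) and the Foxp3Cre library (right bar). Ccr7 fills 58.2% of the KO bar and 16.4% of the Foxp3Cre bar, and Cxcr6 fills 6.79% of the KO bar and 42.4% of the Foxp3Cre bar.

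Of 15 other chemokine receptor genes looked for, 5 are in the table. Ccr3, the eotaxin receptor known from eosinophils and T helper 2 cells, was 5.06-fold lower in the KO library (4.37 to 5.89), at 18.5 CPM in the KO and 93.4 CPM in the Foxp3Cre library. Xcr1, a receptor of cross-presenting dendritic cells, was 3.37-fold lower from 47 counts in the KO and 183 in the Foxp3Cre library. Ccr1l1, a close relative of Ccr1, was 2.51-fold lower (1.99 to 3.18). Ccr6 and the atypical receptor Ccrl2 were within 2-fold, at log2 ratios of -0.65 and 0.22. The other 10 were not analysed here. Thus 3 of the 5 were lower by 2-fold or more and 2 within 2-fold, against 8.41% lower over all listed genes.

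A run of 6 receptor genes with lower levels lies side by side on mouse chromosome 9. In the order of their starts in the GENCODE M21 annotation the protein-coding genes run Cxcr6, Xcr1, Ccr1, Ccr1l1, Ccr3 and Ccr2, and all 6 were 2-fold lower or more in the KO library, with log2 ratios between -2.96 and -1.04. With the Treg markers centred on 0, the 6 ratios lay between -2.36 and -0.44, and 3 of them, those of Ccr1, Ccr1l1 and Ccr2, within 2-fold. Before the run, on the side of Cxcr6, Fyco1 had a log2 ratio of -0.15 and Lztfl1 one of -0.39. Genes past the other end are not described, and the run was picked out after its values were seen. Related genes can share reads. Of all stretches of 50 bases in the transcripts of Ccr2, 1.91% also occur in transcripts of other genes, and for Ccr1 and Cxcr6 the share was 0%. How such reads were counted is not given in the sources used here.

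**Figure D4:**
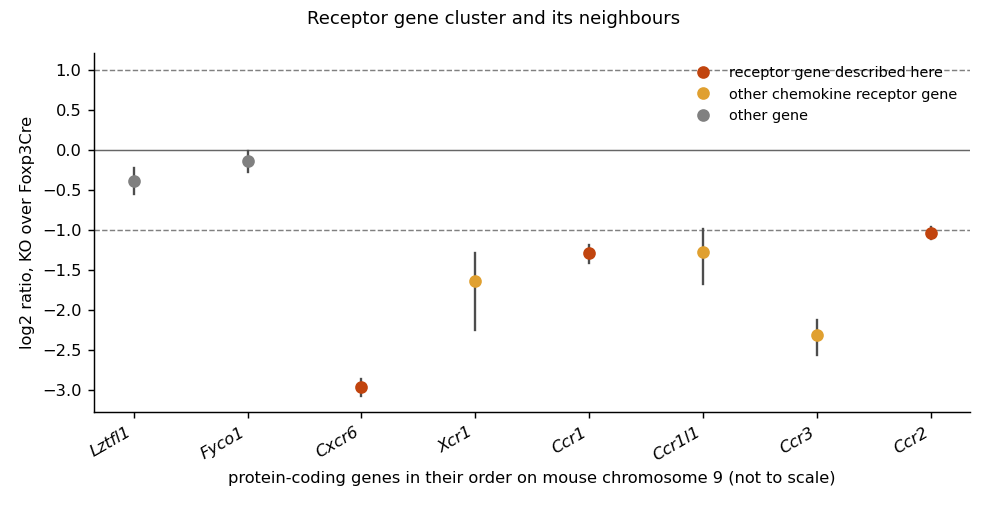
Log2 ratio of KO over Foxp3Cre, with 95% counting intervals, for 8 protein-coding genes in the order of their annotated starts on mouse chromosome 9; the spacing is not to scale and dashed lines mark 2-fold. The 6 genes from Cxcr6 to Ccr2 lie between -2.96 and -1.04, and Lztfl1 and Fyco1 lie at -0.39 and -0.15.

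The ligands of the 9 receptors mostly stood on the other side. Of 20 ligand genes looked for, 13 are in the table, and 11 of these were higher by 2-fold or more in the KO library and 2 within 2-fold. Their median log2 ratio was 1.71, beside 0.01 for all listed genes, of which 10.9% were higher. Of the 11, Ccl6, Ccl9, Ccl17 and Cxcl11 were near the table's floor in the Foxp3Cre library and could be listed only through their KO counts, and without them 7 of 9 were higher, with a median of 1.46. Cxcl16, the ligand of Cxcr6, was 4.24-fold higher, at 166 CPM in the KO and 39.1 CPM in the Foxp3Cre library. Ccl17 and Ccl22, the ligands of Ccr4, were 11.1-fold (7.75 to 16.4) and 2.22-fold higher. Ccl2 and Ccl7, which act on Ccr2, were 7.11-fold and 22.9-fold higher. Ccl6 and Ccl9, which act on Ccr1, had the highest ligand ratios, 6.66 and 6.41 on the log2 scale. Ccl8, which acts on Ccr8 in the mouse, was 2.45-fold higher. For Cxcr3, the higher receptor, Cxcl10 was 1.67-fold lower, at 900.4 CPM in the KO and 1503 CPM in the Foxp3Cre library, and Cxcl11 was 3.55-fold higher from 89 counts in the KO and 29 in the Foxp3Cre library.

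In 12 of the 13 measured pairs of receptor and ligand the 2 ratios had opposite signs; the exception was Cxcr3 with Cxcl11. Without the ligands near the floor 9 pairs were left, and the signs were opposite in 9 of them. Several pairs share a receptor or a ligand, so they are not independent. Most pairs hold a lower receptor, and 12 of the 13 ligands had positive ratios. Opposite signs in most pairs follow from these shifts and carry no further information on the pairing. Macrophages and dendritic cells produce many of these ligands. In the same comparison the median log2 ratio was 5.18 for macrophage markers and, without Ccl22, which is on both lists, 1.38 for dendritic cell markers. The part of such cells in the ligand values was not tested. No ligand of Ccr7, Cxcr5 or Cxcr4 was analysed here.

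**Figure D5:**
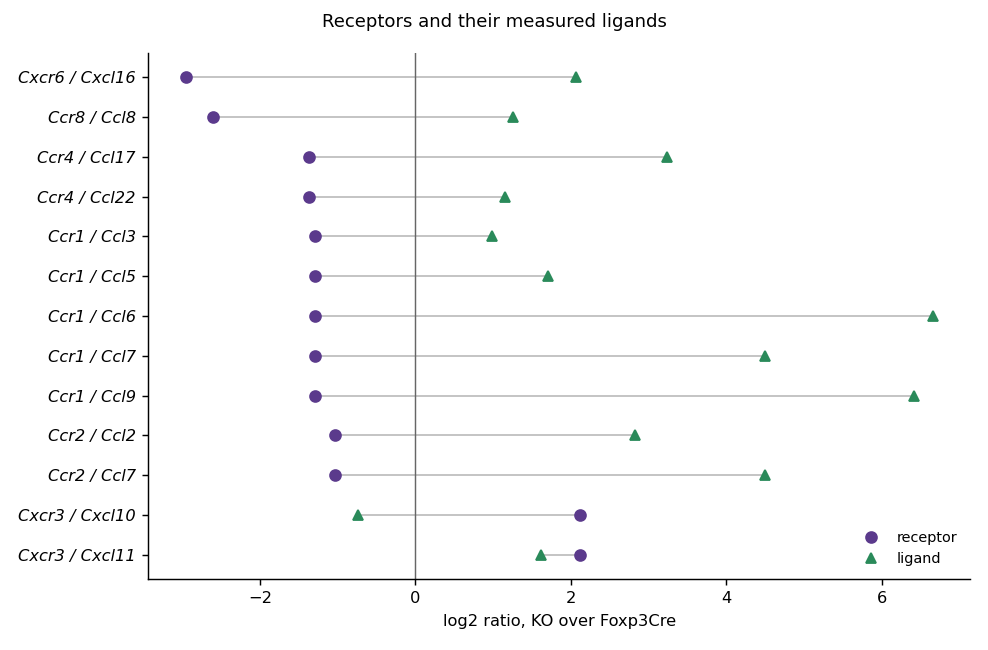
Log2 ratio of KO over Foxp3Cre for 13 pairs of a receptor (circle) and a ligand (triangle), joined by a line, with a vertical line at 0. The ligands of Cxcr6, Ccr8, Ccr4, Ccr1 and Ccr2 lie to the right of 0 and these receptors to the left.

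Downstream of the receptors, most genes of the migration machinery were within 2-fold, as were 80.7% of all listed genes. Of 25 measured genes of chemokine receptor signalling, 23 were within 2-fold (92.0%) and the other 2 were lower, with a median log2 ratio of -0.01. With the Treg markers centred on 0 the median was 0.58, 7 of the 25 were higher by 2-fold or more and 0 lower. Under that scaling 2812 of all 10219 genes were higher and 305 lower. Elmo1, the partner of the Rac activator Dock2, was 2.93-fold lower (2.78 to 3.08), and Pik3cg, the catalytic subunit of the lipid kinase that G protein subunits activate, was 2.42-fold lower (2.07 to 2.84). Dock2 itself and Gnai2, an inhibitory G protein subunit, had log2 ratios of 0.30 and 0.41. At the high end of the list, Pik3r5, a regulatory subunit of the same kinase, and Stk4, a kinase of integrin activation, had log2 ratios of 0.84 and 0.80. Of 13 measured genes that desensitize receptors, 3 were higher by 2-fold or more and 10 within 2-fold, with a median of 0.36. The share higher over all listed genes was 10.9%. Rgs10, a brake on G protein signalling that myeloid cells also express, was 6.48-fold higher, and Adrbk2 and Grk6, kinases that phosphorylate active receptors, were 3.16-fold and 2.33-fold higher. Rgs16 and Rgs1, at the low end, had log2 ratios of -0.52 and -0.32.

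Several genes that accompany Ccr7 in recirculating T cells were also higher in the KO library. Of 11 genes of lymphoid trafficking, 4 were higher by 2-fold or more and 7 within 2-fold, with a median log2 ratio of 0.66. Over all listed genes 10.9% were higher and the median was 0.01. The list includes Klf2 and Foxo1, which are counted again among the transcription factors below. S1pr1, the receptor for exit from lymph nodes, was 4.71-fold higher (4.29 to 5.17). Tcf7 and Lef1, transcription factors of naive and memory T cells, were 31.9-fold and 4.01-fold higher. Gpr183, a receptor for oxysterols, and Il7r, the IL-7 receptor chain, had the lowest ratios, -0.68 and -0.33.

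Transcription factors known to act on these receptor genes were examined last, and 8 of 10 are in the table. Klf2 and Foxo1, which maintain the lymphoid-homing programme of Ccr7 and S1pr1, were 2.61-fold higher (2.36 to 2.89) and 1.73-fold higher (1.61 to 1.85). Bcl6, which drives the follicular programme with Cxcr5, had 162 counts in the KO library and 25 in the Foxp3Cre library, 7.50-fold higher (4.90 to 11.9), and could be listed only through its KO count. Gata3, a factor of T helper 2 cells and tissue Tregs, had 141 CPM in the KO and 624 CPM in the Foxp3Cre library and was 4.43-fold lower. Batf, Irf4 and Prdm1, factors of effector and tissue Tregs that carry Ccr8, were 2.47-fold, 3.72-fold and 5.30-fold lower. Together 2 of the 8 (Klf2 and Bcl6) were higher and 4 lower by 2-fold or more, and Hif1a and Foxo1 were within 2-fold. Without Bcl6, 1 of 7 was higher and 4 were lower. Over all listed genes 10.9% were higher and 8.41% lower.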

How the data were processed

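Libraries from Trizol-extracted RNA were sequenced as paired 150 bp reads, per the labels' protocols. Bowtie2 2.2.3, TopHat2 2.0.12, HTSeq 0.6.1, edgeR and a build named mm8 are listed per the submitters' processing notes; the gene models, strand handling and rule for shared reads are not stated there. The deposited table holds raw read counts per gene for both libraries, whole numbers with no normalization. Beside them the authors deposited a log2 fold change and log2 CPM, a p-value and adjusted p-value, and a likelihood ratio score, per the file headers. A mean of the counts and a fold change were deposited too. Of all these, the log2 fold change and the mean count, which sets the table's floor, were used.

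Counts were scaled by TMM (edgeR 4.0.16, R 4.3.3). Ratios are KO over Foxp3Cre on log2(CPM + 0.5); a printed fold is the ratio of scaled counts with nothing added, with an exact conditional binomial (Clopper-Pearson) 95% interval, and levels per length carry exact Poisson intervals (scipy 1.17.1). PCR copies are not separate molecules, so intervals cover counting error only. With 1 library per genotype no p-value is given. The ratio was tested on simulated data. Transcript lengths and gene order come from GENCODE M21 (GRCm38), in which 10200 of the 10219 gene IDs were found; as the build named in the notes differs, no gene coordinates are given from it, and promoter sequences are from RefSeq.

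The 9 receptors, the gene lists and the receptor groups were chosen with earlier results of these data known. Named genes are all members, Hif1a, Foxp3, every other measured chemokine receptor and transcription factor of the lists, and up to 2 genes at each end of the other lists; further ligands, trafficking genes, markers and genomic neighbours were named after their values were seen. A few further genes are not reported here, and the lists they belonged to are given without them. Alternatives were other scalings, added constants, fold sizes, a level filter, leaving out genes near the table's floor and the authors' log2 fold change.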

Additional observations from a re-analysis of the deposited data

How the results depend on the processing

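Of 90 alternative values of the 9 log2 ratios, 75 stayed within the counting interval, and 0 changed sign. Scaling on pan T cell markers gave 936 higher and 1081 lower genes. Scaling on Treg markers, chosen after seeing the data, gave 2812 higher and 305 lower genes, 2 receptors lower by 2-fold or more, a tissue-homing median of -0.73 and a lymphoid-homing median of 2.54. That median was 1.28 with 5 added to CPM in place of 0.5, a constant that pulls low genes such as Cxcr5 (1.06) towards 0. At 4-fold the counts were 2 lower receptors and, over all genes, 350 higher and 161 lower; at 1.5-fold they were 2067 higher and 1886 lower genes. With Cxcr4 counted as lymphoid-homing, the difference between the group medians was 2.83. Of the other lists, 183 of 187 alternative medians stayed within the median's interval and 468 of 510 alternative counts within 1.5 times. For the shortest lists that interval was the full range of the genes' ratios, a loose bound. The authors' deposited table gives log2 fold changes of -2.96 for Cxcr6 and 2.85 for Cxcr5. With the basic transcript set, also chosen after seeing the data, the order of levels per length did not change. No paired analysis was possible because each genotype has 1 library, and for the same reason no replicate could be left out. Without the genes near the table's floor, also left out after seeing the data, 768 higher (8.14%) and 683 lower (7.24%) of 9437 genes and 2 higher and 5 lower of 8 receptors were past 2-fold. Depth limits Cxcr5 most, with 14 Foxp3Cre counts.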

Other observations

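Gene programmes that accompany single receptors in T cells were compared in the same way. Cxcr3 belongs to type 1 T cells, and of 8 measured T helper 1 genes 4 were higher and 1 lower by 2-fold or more in the KO library. Their median log2 ratio was 1.12, and over all listed genes 10.9% were higher and 8.41% lower. Ccl5, 1 of the 4, is also counted among the ligands. Gzmk, a granzyme, was 19.1-fold higher, with 264 counts in the KO and 16 in the Foxp3Cre library, and could be listed only through its KO count; without it 3 of 7 genes were higher, with a median of 0.80. Il18r1, an IL-18 receptor chain, was 4.16-fold higher (3.78 to 4.59). Its partner chain Il18rap was 2.91-fold lower, and Cd226, an activating receptor, had a log2 ratio of 0.21. Cxcr5 belongs to follicular T cells, and their genes went both ways: of 10 measured, 5 were higher and 3 lower by 2-fold or more, and without Bcl6, near the table's floor, 4 and 3 of 9. Slamf6 and Sh2d1a, a surface receptor and the adaptor that binds it, were 17.8-fold and 8.38-fold higher. Tox2 and Maf, transcription factors of follicular T cells, were 15.9-fold and 2.31-fold lower. B cells also express Btla, which was 5.92-fold higher; the B cell markers are given with Ccr7.

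Ccr8 and Cxcr6 belong to tissue Tregs. Of 15 tissue Treg genes, 12 were lower and 1 higher by 2-fold or more in the KO library, and 2 were within 2-fold. The median log2 ratio was -2.39, beside 0.01 for all listed genes, of which 8.41% were lower and 10.9% higher. Gata3, Batf, Irf4 and Prdm1, already given among the transcription factors, are counted again in these 12. Klrg1 and Il1rl1, markers of differentiated tissue Tregs, had the lowest ratios, -5.18 and -5.14. Itgae, the integrin chain CD103 that holds T cells in epithelia, was 2.74-fold higher, at 13.4 CPM in the KO and 4.89 CPM in the Foxp3Cre library. Of the 3 measured markers of natural killer and innate lymphoid cells, Tyrobp and Klrk1 had log2 ratios of 4.85 and 1.81 and Gzma one of -1.18. Myeloid cells also express Tyrobp, so its ratio is not particular to natural killer or innate lymphoid cells. Of the 2 measured CD8 T cell markers, Klrd1 stood at 2.79, from 118 counts in the KO and 14 in the Foxp3Cre library and listed only through its KO count, and Cd8b1 at -0.23. The part of such cells in the receptor values was not tested.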
